A study of Mus musculus with 6 samples.

Results

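The genes described here are 5 immunoglobulin genes and the J chain gene: Igkc, Igha, Ighm, Iglv1, Iglc1 and Jchain. They were taken by symbol from a table of 49315 genes, and all 6 were found and passed the filter on low counts. They had been chosen for their low values in sorted cells carrying a miR-206 transgene against control cells, so their levels in that comparison are given as a description, without a test. Bulk RNA sequencing gave 6 libraries from the livers of male C57BL/6J mice. The miR-206 group (3 libraries) is GFP-positive cells from mice injected at 8 weeks of age, by hydrodynamic injection, with 20 µg of a transposon plasmid carrying miR-206 and GFP behind the Ttr promoter, which is active in hepatocytes, together with 0.8 µg of a Sleeping Beauty transposase plasmid. The control group (3 libraries) is the GFP-negative cells that the design text takes from the same mice, 4 weeks after injection, whereas the sample labels give it an empty vector. The cells are labelled hepatocytes, and the labels name no gate other than GFP. The labels call the control genotype wild-type and the other miR-206 overexpression. Mice of both groups were of 1 strain and sex, and GFP and the sorting gate differ between the groups together with miR-206.

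Antibodies are built from 2 heavy and 2 light chains. Each chain joins a variable segment, chosen by DNA rearrangement in the B cell, to a constant segment that sets the class, and antibody messages are made by cells of the B lineage. Plasma cells, their final stage, devote much of their RNA to these messages. J chain links IgA into dimers and IgM into pentamers, which the polymeric immunoglobulin receptor Pigr carries across epithelia. IgA plasma cells in the liver have been traced to the gut, and in mice the lambda light chain is far less used than kappa.

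The lambda genes show why counts within this family are uncertain. From 60 bases of the coding sequence of each lambda constant segment (GENCODE M21, GRCm38, chromosome 16, minus strand), beginning at base 3, 4 and 3 of the annotated coding sequence, Iglc2 and Iglc3 can be compared with Iglc1. Capitals mark bases that differ from Iglc1, 13 in each:
Iglc1: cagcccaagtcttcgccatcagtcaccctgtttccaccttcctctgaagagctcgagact
Iglc2: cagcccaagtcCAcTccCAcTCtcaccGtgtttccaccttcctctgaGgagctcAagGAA
Iglc3: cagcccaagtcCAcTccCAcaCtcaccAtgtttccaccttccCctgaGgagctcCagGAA
Over the aligned coding sequence Iglc1 was 73.2% identical to Iglc2 and 73.9% to Iglc3, whereas Iglc2 and Iglc3 were 96.5% identical. The variable segments Iglv1 and Iglv2 were 96.9% identical, and their first 60 coding bases differ at 4 positions, in capitals:
Iglv1: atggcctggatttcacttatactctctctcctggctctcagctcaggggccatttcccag
Iglv2: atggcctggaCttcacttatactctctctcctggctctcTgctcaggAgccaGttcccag
Reads of Iglv1 and Iglv2, and of Iglc2 and Iglc3, can thus be shared or lost, depending on how the authors counted. The same holds for the heavy chain constant segments Ighg2b and Ighg2c, at 87.8% identity.

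The transgene's product is shown to set its seed (bases 2 to 8, in capitals) beside the members' transcripts. The mature sequence is from RefSeq (GRCm38.p6, chromosome 1, 20679055 to 20679076, plus strand):
mmu-miR-206-3p: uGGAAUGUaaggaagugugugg
The match to this seed, ACATTCC, occurs in none of the 6 members' longest annotated transcripts, which run from 391 to 2540 bases. It occurs in 19.1% of 21872 protein-coding transcripts, which are longer, with a median of 2681 bases. The absence says only that these letters are not in those sequences. Mir206 was counted at 0 in all 6 libraries, and an mRNA library gives no measure of the mature microRNA, so the transgene could not be checked.

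The miR-206 libraries held 4157947 to 5724329 counts and the controls 8966590 to 15244017. Mitochondrially encoded genes took 11.2% to 63.8% of counts in the miR-206 libraries and 9.16% to 36.0% in the controls. Control 1 stood apart from the other controls, with the 36.0%. Olfactory and vomeronasal receptor genes, which hepatocytes are not known to express, gave 3.70 to 5.45 counts per exonic kb in the miR-206 libraries and 1.26 to 3.05 in the controls, and this density times a gene's exonic length is called the expected background here. Albumin was counted at 34286 to 145929 in the miR-206 libraries and 221413 to 729241 in the controls, so both groups hold hepatocyte RNA. Nothing says that libraries of a group came from separate animals, so p-values may measure technical spread.

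For all 6 members, the 3 miR-206 libraries lay below the 3 controls, in CPM (counts scaled to library size, with TMM factors). Of all 24382 genes tested, 30.3% showed the same order, and since the members were chosen on this comparison nothing is read from their number. Together they had 90, 79 and 127 counts in miR-206 libraries 1 to 3, or 11.4, 14.4 and 16.6 CPM. In controls 1 to 3 they had 5406, 7951 and 7214 counts, or 714, 825 and 817 CPM. In these bulk libraries fewer plasma cells and less message per cell cannot be told apart.

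Igkc is the constant segment of every kappa light chain (ENSMUSG00000076609, GRCm38 chromosome 6, 70726435 to 70726966, plus strand, a single exon). It was counted at 1, 10 and 12 in miR-206 libraries 1 to 3, against 2196, 3188 and 3013 in controls 1 to 3. The controls lay close together and the miR-206 libraries stood far below them, without overlap. It averaged 1.17 ± 0.914 CPM in miR-206 cells and 321 ± 27.0 CPM in control cells (SD, n = 3 each). The log2 fold change was -8.12 (SE 0.80), and 1 of the genes tested had a lower one.

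The lambda members followed. Iglc1 is a lambda constant segment (ENSMUSG00000105906, chromosome 16, 19061618 to 19062071, minus strand). It was counted at 5, 2 and 7 in miR-206 libraries and at 183, 299 and 201 in controls. All 3 miR-206 libraries were in single digits. The means were 0.638 ± 0.276 CPM in miR-206 cells and 26.0 ± 4.42 CPM in controls, a log2 fold change of -5.27 (SE 0.41). Iglv1, a variable segment that joins Iglc1 or Iglc3 (ENSMUSG00000076934, chromosome 16, 19085017 to 19085500, minus strand), had 2, 0 and 0 counts in miR-206 libraries and 207, 176 and 161 in controls. With 2 counts over the miR-206 group, the ratio of miR-206 to control was 0.00455 (95% exact counting interval 0.000549 to 0.0165), and its level in miR-206 cells was 0.352 times the expected background.

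Among heavy chains, Igha gives the constant region of IgA (ENSMUSG00000095079, chromosome 12, 113254830 to 113260236, minus strand). It was counted at 4, 17 and 37 in miR-206 libraries, against 1793, 3040 and 2870 in controls. Library 1 of the miR-206 group was the lowest and library 3 the highest, and none came near a control. The means were 2.81 ± 2.18 CPM in miR-206 cells and 292 ± 48.4 CPM in controls, a log2 fold change of -6.70 (SE 0.77). Ighm, the constant region of IgM (ENSMUSG00000076617, chromosome 12, 113418558 to 113422730, minus strand), had 57, 38 and 45 counts in miR-206 libraries and 483, 407 and 333 in controls. Its gap between the groups was the smallest of the 6. It averaged 6.67 ± 0.692 CPM in miR-206 cells and 47.9 ± 13.9 CPM in controls, a log2 fold change of -2.84 (SE 0.35).

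Jchain, the joining chain of polymeric IgA and IgM (ENSMUSG00000067149, chromosome 5, 88519809 to 88527891, minus strand), lies outside the immunoglobulin loci and needs no rearrangement. It was counted at 21, 12 and 26 in miR-206 libraries and at 544, 841 and 636 in controls. It averaged 2.75 ± 0.616 CPM in miR-206 cells and 77.1 ± 8.84 CPM in controls, a log2 fold change of -4.79 (SE 0.39). The median over the 6 members was -5.99, against 0.45 over all genes tested.

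**Figure D1:**
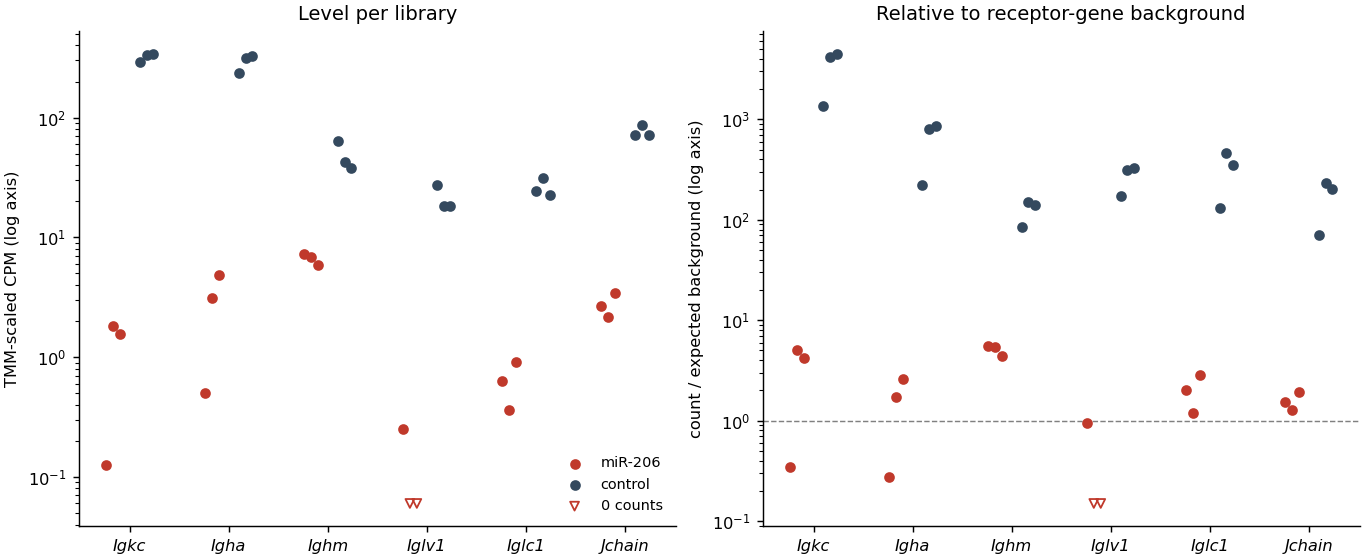
Left, TMM-scaled CPM of the 6 members in each library (log axis), with miR-206 libraries in red and controls in dark blue, replicates 1 to 3 from left to right. Right, the count divided by the expected background of the receptor genes (log axis, dashed line at 1). Open triangles mark the 2 miR-206 libraries with 0 Iglv1 counts, drawn at the foot of the axis. The controls lie at 113 to 2748 times the background when summed, and the miR-206 libraries at 0.352 to 5.11 times.

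The distance from background set the members apart from each other. Summed over the controls they lay at 2748 times the expected background for Igkc, 503 for Igha, 262 for Iglc1, 242 for Iglv1, 140 for Jchain and 113 for Ighm. Summed over the miR-206 libraries, Igha lay at 1.50 times the background, Jchain at 1.61, Iglc1 at 2.12, Igkc at 2.98 and Ighm at 5.11. The miR-206 libraries differed among themselves. Igkc lay at 0.345, 5.08 and 4.19 times the background in miR-206 libraries 1 to 3, Igha at 0.275, 1.72 and 2.58 times and Ighm at 5.55, 5.45 and 4.43 times. With the expected background subtracted from all genes the log2 fold changes were -7.63 for Igkc, -6.70 for Igha and -5.27 for Jchain.

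The sign of all 6 held under all 16 alternative settings, which include other scalings, subtraction of background and each library left out in turn. Scale changed the size. Scaling the libraries on hepatocyte identity genes moved the median of all genes to 2.17. The members then had -6.14 (SE 0.77) for Igkc, -4.68 (SE 0.70) for Igha, -3.61 (SE 0.87) for Iglc1, -3.02 (SE 0.65) for Jchain and -1.15 (SE 0.65) for Ighm. The value of Ighm was thus small beside its SE. Iglv1 ran from -10.47 without miR-206 replicate 1, the library that holds its 2 counts, to -6.37. Without control 1 the values were -8.30 for Igkc, -6.92 for Igha, -5.39 for Iglc1, -4.91 for Jchain and -2.66 for Ighm.

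Per exonic kb, the order of levels in the control cells was Igkc at 603 ± 50.8 CPM per kb, Igha at 110 ± 18.1, Iglc1 at 57.2 ± 9.73, Iglv1 at 54.4 ± 13.4, Jchain at 30.6 ± 3.51 and Ighm at 25.4 ± 7.39 (SD, n = 3). Iglc1 and Iglv1, which can be parts of 1 message, did not differ beyond their spread, nor did Jchain and Ighm. In miR-206 cells the order was another one, led by Ighm at 3.54 ± 0.367 CPM per kb, followed by Igkc at 2.20 ± 1.72, Iglc1 at 1.40 ± 0.609, Jchain at 1.09 ± 0.245, Igha at 1.05 ± 0.818 and Iglv1 at 0.216 ± 0.374, and the spread of most of these covers their neighbours.

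IgA was the main heavy chain class in the controls. Of 7 heavy chain constant segments (Igha, Ighm, Ighg2b, Ighg2c, Ighg1, Ighg3 and Ighd), Igha took 61.0% of counts in control 1 (95% Wilson interval 59.3 to 62.8), 69.2% in control 2 (67.8 to 70.5) and 72.4% in control 3 (71.0 to 73.8). Intervals cover counting error only, since reads are not independent molecules. Per exonic kb and less background, Igha took 55.5%, 59.3% and 62.9% and Ighm 21.0%, 11.2% and 10.3% in controls 1 to 3. The IgG2c segment Ighg2c took 5.57% in control 1, against 22.3% in control 2 and 20.1% in control 3, while Ighg2b was highest in control 1, at 12.4%, 5.74% and 4.71%. In the miR-206 libraries these 7 segments held 243, 166 and 256 counts in all, of which Igha took 1.65%, 10.2% and 14.5%, and Ighg2c, Ighg2b and Ighm were the 3 most counted in each.

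Kappa was the main light chain. The 3 lambda constant segments Iglc1, Iglc2 and Iglc3 together took 18.9% of light chain counts in control 1 (Wilson interval 17.5 to 20.5), 11.9% in control 2 (10.8 to 13.0) and 9.36% in control 3 (8.41 to 10.4). The share of the member Iglc1 itself was 6.76%, 8.27% and 6.05%. It was highest in control 2 (Wilson interval 7.41 to 9.21), apart from control 3 (5.29 to 6.91). The excess of control 1 lay in Iglc2 and Iglc3, at 7.60% and 4.58%, against 2.27% and 1.33% in control 2. Control 1 also had the most counts of Iglv2, the variable segment that joins Iglc2, at 82 against 41 and 23. In the miR-206 libraries the light chain counts were 41, 25 and 48, too few to give a share of use. For every Igha count the controls held 0.303, 0.277 and 0.222 counts of Jchain and 1.22, 1.05 and 1.05 of Igkc, so these ratios moved little between the controls.

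**Figure D2:**
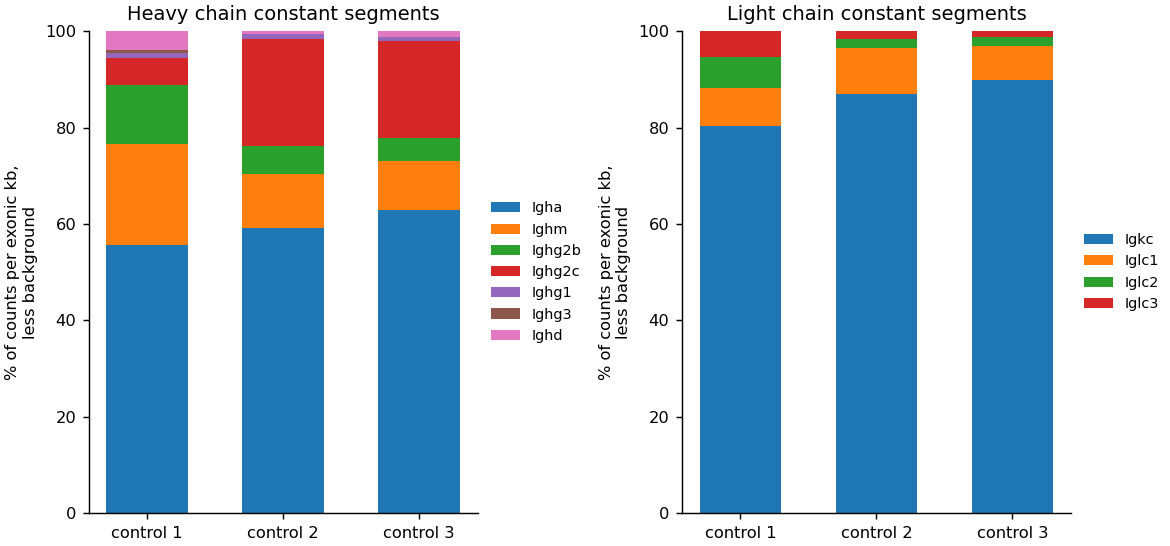
Make-up of heavy chain (left) and light chain (right) constant segments in the 3 control libraries, as a percentage of counts per exonic kb after the expected background was subtracted. Igha and Igkc are the largest parts in each, and control 1 has less Ighg2c and more Ighm, Ighg2b, Iglc2 and Iglc3 than controls 2 and 3.

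Variable segments were summed by locus. The 185 heavy chain segments together had 1054, 696 and 926 counts in miR-206 libraries and 1127, 1261 and 1161 in controls, and the 160 kappa segments 1214, 877 and 1174 in miR-206 libraries and 1780, 1878 and 1825 in controls. On the TMM scale the heavy chain sums overlapped, at 121 to 133 CPM in miR-206 libraries and 131 to 149 CPM in controls. The kappa sums did not overlap, at 154 to 160 CPM in miR-206 libraries and 195 to 235 CPM in controls. Nor did those of the 3 lambda segments, Iglv1 among them. These had 4, 2 and 4 counts in miR-206 libraries and 297, 235 and 189 in controls. The heavy chain and kappa orders depend on the TMM factors, which were 1.12 to 1.94 in miR-206 libraries and 0.629 to 0.849 in controls. With library size alone, heavy chain sums were higher in the miR-206 group without overlap, and kappa sums overlapped. Against the expected background, the heavy chain segments stood at 2.64 to 2.97 times in miR-206 libraries and 5.68 to 14.2 times in controls, and the kappa segments at 3.90 to 4.24 times in miR-206 libraries and 10.4 to 25.9 times in controls.

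**Figure D3:**
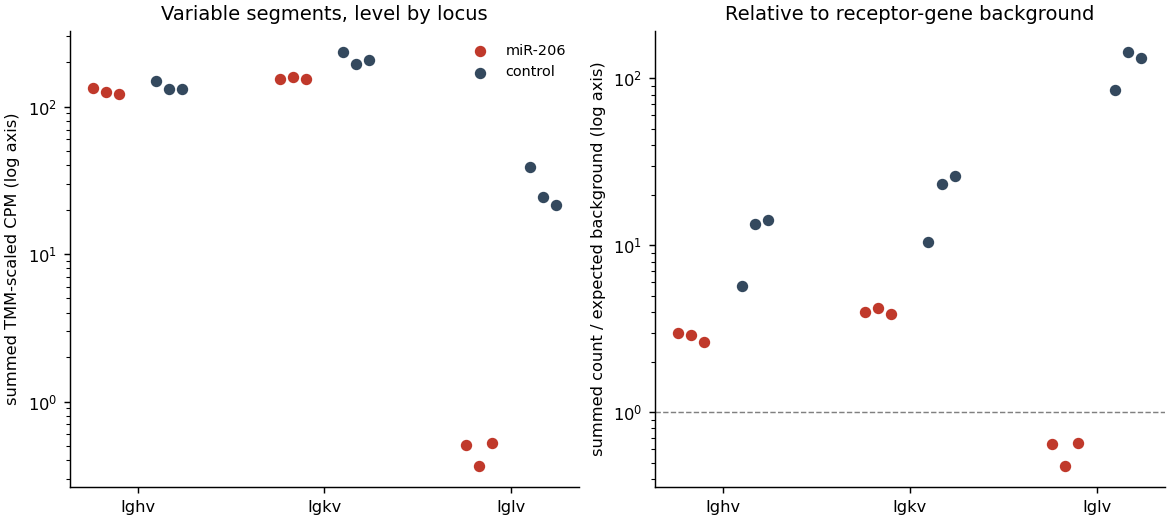
Summed TMM-scaled CPM (left) and summed count over expected background (right, dashed line at 1) of the heavy chain (Ighv), kappa (Igkv) and lambda (Iglv) variable segments, on log axes, with 1 point per library, miR-206 in red and controls in dark blue. Heavy chain sums overlap on the left and kappa sums do not, and lambda sums lie below the background line in the miR-206 libraries on the right.

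Of 347 variable segments other than Iglv1, 88 passed the filter on low counts, of which 24 fell and 18 rose at an adjusted p under 0.05 (edgeR quasi-likelihood test, Benjamini-Hochberg over all genes). Among all genes 29.6% fell and 25.8% rose, so both shares, 24 and 18 of 88, were near those of all genes. The split turned round under 3 other scalings, when mitochondrial genes were left out, when background was subtracted, and without control 1. The 24 that fell had a median of 132.5 counts over the controls. The 18 that rose had a median of 8.5 counts over the controls and 53.0 over the miR-206 libraries. Relative to the expected background, their median was 5.37 times in the controls and 11.4 times in the miR-206 libraries.

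Among the most counted segments, the kappa segment Igkv6-15 had 11, 9 and 10 counts in miR-206 libraries and 146, 93 and 73 in controls (log2 fold change -3.09, SE 0.46, edgeR adjusted p = 0.000597). Igkv6-23 had 8, 1 and 3 counts in miR-206 libraries and 55, 123 and 95 in controls (-4.17, SE 0.58, adjusted p = 0.000433). Both fell without overlap. Igkv8-30 fell less (-1.80, SE 0.43, adjusted p = 0.00622), and passed under 2 of 5 scalings. The heavy chain segment Ighv1-64 had 1, 0 and 0 counts in miR-206 libraries and 16, 78 and 54 in controls, a ratio of 0.00836 (counting interval 0.000210 to 0.0473). Ighv14-2 fell less (-1.78, SE 0.51, adjusted p = 0.0141), and passed under 2 of 5 scalings. Ighv2-9-1, by contrast, had 35, 26 and 20 counts in miR-206 libraries and 47, 55 and 45 in controls, and did not pass (-0.53, SE 0.41, adjusted p = 0.273), with a positive value under 3 of 5 scalings. Iglv2, close in sequence to Iglv1 as printed above, had 2, 2 and 4 counts in miR-206 libraries and 82, 41 and 23 in controls (-3.89, SE 0.72, adjusted p = 0.00173). Iglv3 had 0 counts in all miR-206 libraries and 31 over the controls. With 3 counts put in place of the 0, it was 8.35-fold lower on the TMM scale. The counting interval of its ratio to control reached 0.156.

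The mix of variable segments was also compared between libraries. Over the 133 segments with at least 20 counts in the controls together, Spearman's rho was 0.726 between controls 2 and 3, but 0.180 between controls 1 and 2 and 0.233 between controls 1 and 3. Of the 133, 15 differed at least 3-fold in share between controls 2 and 3, against 49 and 50 between control 1 and each of them. Over all genes compared, 667 of 18962 differed as much between controls 2 and 3, 6624 of 20181 between controls 1 and 2 and 6508 of 19886 between controls 1 and 3, so control 1 stood apart by a similar share of all genes. For example, Ighv3-6 had 69 and 65 counts in controls 2 and 3 and 8 in control 1, whereas Ighv10-3 had 8 and 14 counts in controls 2 and 3 and 71 in control 1 (both chosen after their values were seen). These correlations are across segments that share a library's depth, and are a description. No 2 libraries of a group agreed within sampling noise over all genes, since the chi-square per degree of freedom was at least 6.78.

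Over the 192 segments with at least 20 counts in all libraries together, rho was 0.762 to 0.791 among the miR-206 libraries and -0.181 to 0.132 between a miR-206 library and a control. On these segments it was 0.757 between controls 2 and 3, 0.438 between controls 1 and 2 and 0.423 between controls 1 and 3, higher for control 1 than on the 133 chosen by their control counts. With segments chosen by at least 20 counts in each pair, rho was 0.324 to 0.432 among the miR-206 libraries. It was then 0.697 between controls 2 and 3, 0.0799 between controls 1 and 2 and 0.0884 between controls 1 and 3. Agreement within a group thus depended on how segments were chosen. The receptor genes of the background, 1114 by the same minimum, gave 0.779 to 0.808 among the miR-206 libraries, 0.477 to 0.646 between a miR-206 library and a control, and 0.369 to 0.544 among the controls. With receptor genes chosen by at least 20 counts in each pair, rho was 0.702 to 0.747 among the miR-206 libraries and 0.0288 to 0.0424 among the controls.

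**Figure D4:**
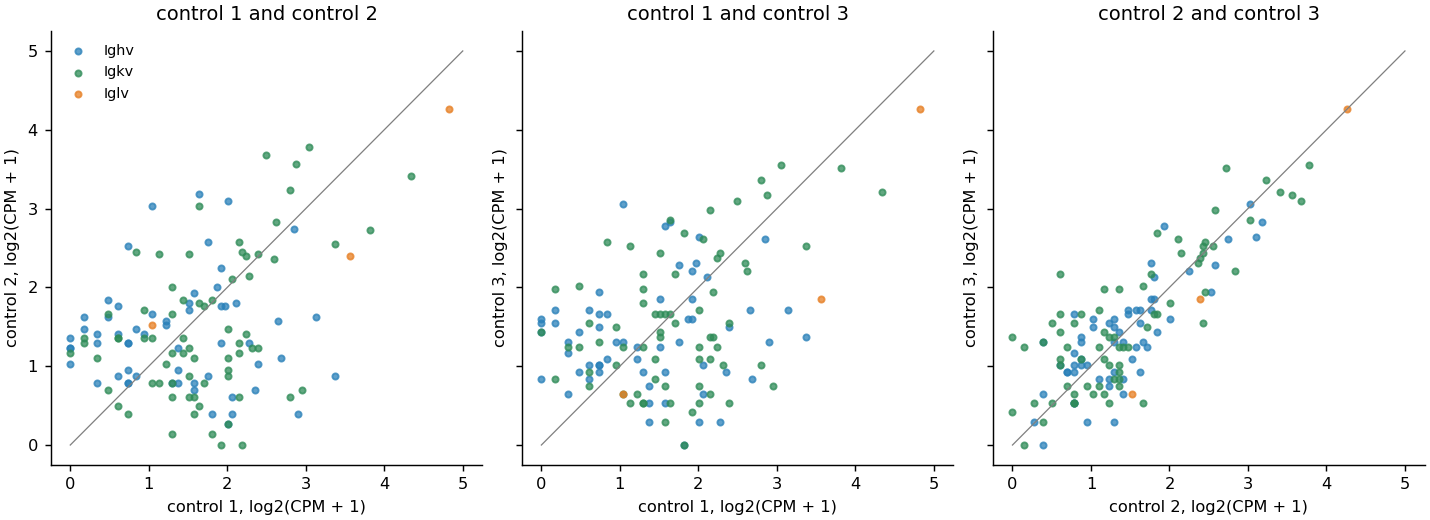
Level of 133 variable segments, as log2(TMM-scaled CPM + 1), in each pair of control libraries, with heavy chain segments in blue, kappa in green and lambda in orange, and a line of equal level. The points of controls 2 and 3 follow the line, and those of control 1 against either scatter widely. The highest point in each panel is Iglv1.

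The other immunoglobulin constant segments mostly fell with the members. Of 9, 7 were tested, of which 5 fell and 1 rose, with a median log2 fold change of -2.08, against 0.45 over all genes. The shares of all genes that fell and rose were 29.6% and 25.8%. Under hepatocyte scaling 1 of the 5, Iglc3, still passed. Ighg2c had 66, 40 and 67 counts in miR-206 libraries, against 93, 569 and 458 in controls (-2.33, SE 0.52, edgeR adjusted p = 0.0044). Ighg2b had 79, 39 and 64 counts in miR-206 libraries and 408, 299 and 219 in controls (-2.10, SE 0.37, adjusted p = 0.00139). Iglc2 fell (-2.08, SE 0.52, adjusted p = 0.00772), and Iglc3, with 3, 0 and 0 counts in miR-206 libraries and 124, 48 and 37 in controls, had a ratio of 0.0178 (counting interval 0.00363 to 0.0526). Iglc4 rose, with 9, 9 and 8 counts in miR-206 libraries and 0 in every control. With 3 counts put in place of the 0, it was 10.7-fold higher on the TMM scale, and the counting interval of its ratio began at 8.12. In miR-206 cells Iglc4 lay at 5.70 times its expected background.

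Plasma cell genes other than the members were 24 in the table, of which 23 were tested, 13 fell and 3 rose, around a median of -1.47. Over all genes 29.6% fell and 25.8% rose. Many of the plasma cell genes serve secretion in any cell, hepatocytes included. Creld2, an endoplasmic reticulum chaperone, fell (138, 29 and 60 counts in miR-206 libraries, 485, 734 and 885 in controls, -2.96, SE 0.49, adjusted p = 0.000943), as did Edem2 and Edem1, which send misfolded glycoproteins for degradation (-2.54 and -2.27), and Fam46c, a poly(A) polymerase of plasma cells (-3.30). Xbp1, the transcription factor that expands the secretory apparatus, had 207, 136 and 131 counts in miR-206 libraries and 282, 1130 and 1377 in controls (-2.19, SE 0.53, adjusted p = 0.00652). The B lineage coactivator Pou2af1 rose (2.38, SE 0.54, adjusted p = 0.00452), with 36, 17 and 38 in miR-206 libraries and 5, 10 and 6 in controls, the miR-206 counts being 2.46 times their expected background. Mzb1, a chaperone of antibody assembly that few other cells make, had 18, 17 and 5 counts in miR-206 libraries and 40, 52 and 51 in controls (-1.47, SE 0.55, adjusted p = 0.0428), while Prdm1, the factor that sets the plasma cell state, did not pass (0.57, adjusted p = 0.282). The direction of this list depended on scale: with library size alone 4 fell and 6 rose, and with hepatocyte scaling 1 fell and 6 rose. Of the genes called, 8 had a negative value under all 5 scalings, and of these Creld2 was the 1 that passed under all 5.

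B cell genes split both ways, with 6 that rose and 4 that fell of 18 tested (22 in the table), around a median of 0.15. Among all genes 25.8% rose and 29.6% fell, so the split was near that of all genes. Cd79a, the signalling chain of the B cell receptor, fell (5, 6 and 7 counts in miR-206 libraries, 30, 30 and 36 in controls, -2.07, SE 0.54, adjusted p = 0.00916), as did Cd37, a tetraspanin of B cells, with 1, 0 and 1 counts in miR-206 libraries and 19, 46 and 83 in controls (ratio 0.0167, counting interval 0.00201 to 0.0615). Ly6d, a surface protein of early B cells and of epithelia, fell, with 8, 8 and 15 counts in miR-206 libraries, against 781, 553 and 508 in controls (-5.61, SE 0.48, adjusted p = 0.000271). The complement receptor Cr2 and the IgE receptor Fcer2a rose (1.98 and 1.84), at 2.15 and 3.25 times the expected background in miR-206 cells and 1.63 and 2.87 times in controls. The number that rose depended on the fit. It was 8 with upper-quartile factors, with library size alone and without control 1, and 9 with hepatocyte scaling, where the list median was 2.09. It was 3 with DESeq2 or no filter, 2 without miR-206 replicate 2 or 3 or control replicate 2 or 3, and 0 without miR-206 replicate 1.

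Receptors of antibodies fell in 8 of 10 tested genes, with none that rose and a median of -2.04. For all genes the shares were 29.6% that fell and 25.8% that rose. Fcer1g, the signalling chain shared by Fc receptors, had 36, 21 and 27 counts in miR-206 libraries and 226, 691 and 510 in controls (-3.74, SE 0.42, adjusted p = 0.000281). The inhibitory receptor Fcgr2b (-2.80), the activating Fcgr3 (-2.54), the neonatal receptor Fcgrt (-2.49) and the asialoglycoprotein receptor subunit Asgr1 of hepatocytes (-2.01) fell too. Fcer1g passed under all 5 scalings, and with hepatocyte scaling it was the 1 that passed. Pigr, the carrier of polymeric IgA, did not pass, with 519 ± 233 CPM in miR-206 cells and 1247 ± 1.70 CPM in controls (-1.27, adjusted p = 0.0612), and its value was 0.37 under hepatocyte scaling.

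Of the genes for homing and niche of IgA plasma cells, 3 fell and 3 rose of 9 tested. Both shares were near the 29.6% of all genes that fell and the 25.8% that rose. Cxcl13, a chemokine that draws B cells, had 0, 1 and 0 counts in miR-206 libraries and 36, 116 and 143 in controls (ratio 0.00419, counting interval 0.000106 to 0.0236). Cxcl12, which holds plasma cells in their niche, fell (-3.08, SE 0.61, adjusted p = 0.00244), as did the gut-homing integrin chain Itgb7 (-2.11, SE 0.36, adjusted p = 0.00114). With hepatocyte scaling neither Cxcl12 (-0.82) nor Itgb7 (-0.20) passed, and with library size alone Itgb7 did not (-0.99). The survival factor Tnfsf13b rose, with 90, 73 and 85 counts in miR-206 libraries and 5, 23 and 40 in controls (2.22, SE 0.55, adjusted p = 0.00726). Its counts were 2.49 times the expected background in miR-206 cells and 1.72 times in controls. Tnfsf13 went the other way, with 0 counts over the miR-206 libraries and 33 over the controls. With 3 counts put in place of the 0, it was 8.89-fold lower on the TMM scale, a value that leaves out counting error in the controls. The cytokine gene Il6 rose, with 89, 66 and 73 counts in miR-206 libraries and 28, 33 and 21 in controls (1.78, SE 0.36, adjusted p = 0.00268). Relative to the expected background, however, Il6 was alike in the groups, at 6.46 times in miR-206 cells and 5.88 times in controls.

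**Figure D5:**
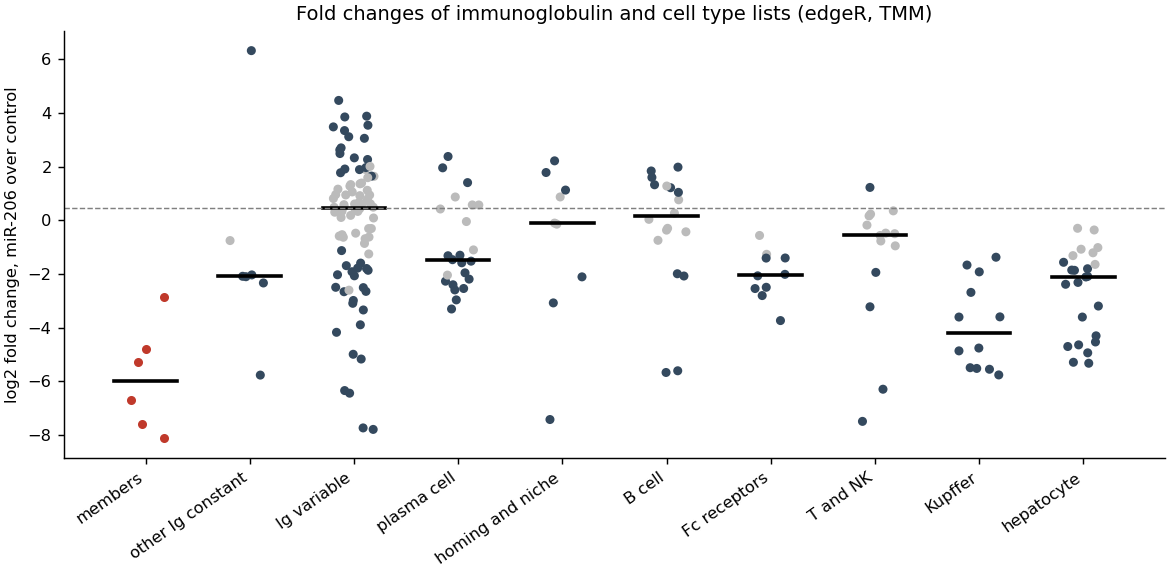
Log2 fold change of miR-206 over control (edgeR, TMM) for each tested gene of the listed groups. Members are in red and carry no test, other genes are dark where the adjusted p is under 0.05 and grey otherwise, black bars are list medians and the dashed line is the median of all genes at 0.45. Fitted values of genes at 0 or a few counts in a group (Iglc4, Cxcl13) depend on the prior count. The members' median is -5.99, and the B cell and variable segment genes lie on both sides of the line.

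The genes whose profile over the 6 libraries lay nearest to the members' mean profile were Ly6d, Cd74, H2-Ab1, H2-Aa, Nkg7, Nfil3, Hspa8, Tyrobp, Sh3bgrl3 and Txnip. The measure was the Euclidean distance of centred log2 CPM over 6 libraries, among 11336 genes averaging 5 CPM or more, and ran from 0.749 to 1.56, against a median of 5.72. Ly6d was nearest. Cd74, the invariant chain of class II antigen presentation, had 60, 104 and 113 counts in miR-206 libraries and 3057, 6341 and 5827 in controls. The class II gene H2-Ab1 had 63, 74 and 73 counts in miR-206 libraries and 2340, 4598 and 4226 in controls. Nkg7, a cytotoxic granule gene, had 1 count over the miR-206 libraries and 305 over the controls, and Tyrobp, an adaptor of myeloid and natural killer cells, had 17, 15 and 39 in miR-206 libraries and 484, 1039 and 838 in controls. Their likeness was measured on the comparison that chose the members and is given without a test.

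Marker lists of other cell types differed in how many of their genes fell. Kupffer cell markers (12 of 12 tested fell) summed to 50.7 to 58.2 CPM in miR-206 libraries and 367 to 1600 CPM in controls. Sinusoidal endothelial markers fell in 10 of 10 tested genes, cholangiocyte markers in 4 of 6, stellate cell markers in 4 of 9, neutrophil markers in 2 of 7 and red cell markers in 1 of 5, while of 7 dendritic cell markers 1 fell and 1 rose. Over all genes 29.6% fell and 25.8% rose. These calls depended on scale. Falls that passed under all 5 scalings were 8 for Kupffer cells, 1 for sinusoidal endothelium, 2 for cholangiocytes and 1 for stellate cells. For neutrophils and red cells they were 0, for dendritic cells 1 and for T and natural killer cells 2. T and natural killer cell markers (4 fell and 1 rose of 14 tested, near the 29.6% of all genes that fell) summed to 55.9 to 58.9 CPM in miR-206 libraries and 86.1 to 99.4 CPM in controls. For B cell genes the sums were 108 to 120 CPM in miR-206 libraries and 142 to 201 CPM in controls. Ly6d alone held 103, 57.4 and 57.5 CPM of the sums in controls 1 to 3, against 1.01 to 1.96 CPM in miR-206 libraries. This was more than the gap, so the sums do not show the remaining B cell genes as lower in miR-206 cells. Plasma cell genes summed to 345 to 694 CPM in miR-206 libraries and 1197 to 1728 CPM in controls. No gene of the Kupffer cell, T and natural killer cell, B cell and plasma cell lists was at 0 in all miR-206 libraries, but 9 of 22 B cell genes and 4 of 24 plasma cell genes were at or under the expected background there, against 0 and 2 in the controls. Hepatocyte identity genes (17 of 24 fell, 8 of them passing under all 5 scalings) summed to 26785 to 70680 CPM in miR-206 libraries and 91625 to 216085 CPM in controls. The part of cell make-up, background and mitochondrial share in the members' levels was not tested.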

How the data were processed

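The authors deposited 1 table of whole-number read counts, not normalized, with a row per Ensembl gene and a column for each of 6 libraries. The labels' protocols name a column kit for total RNA and a SMARTER mRNA library kit, and GRCm 38 and mm 10 are the builds in the submitters' processing notes. Which aligner, counter, gene models and strandedness were used is not given in the sources used here. The members and gene lists were chosen with earlier results of these data known.

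Genes passing filterByExpr (minimum count 10) entered the quasi-likelihood F test of edgeR 4.0.16 with TMM factors (robust, two-sided, group as the single term), with Benjamini-Hochberg adjustment over all 24382 genes and a threshold of 0.05. The SE is the log2 fold change over the square root of F. The procedure was tested on simulated data in which 200 genes were changed 8-fold. The simulation held no background and no shift of most genes, so it cannot show how the procedure fares with these. CPM are counts over the TMM-scaled library size. A floor of 3 counts is 0.379 to 0.546 CPM per miR-206 library and 0.311 to 0.396 CPM per control. Exonic lengths and coordinates are from GENCODE M21, by identifier, for 49056 genes. The background density is from 1702 receptor genes (5503 exonic kb).

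Named were the members, up to 5 genes of each antibody list by smallest p, up to 3 of the most abundant variable segments of each locus other than Iglv1, and the 10 nearest profiles. The rule also took the 2 most abundant genes of each other marker list, of which only albumin is given. Xbp1, Mzb1, Prdm1, Pigr and others outside this rule were chosen after their values were seen. Alternatives were other scalings, filters, DESeq2, a replicate block, background subtraction and each library left out. DESeq2 1.42.0, limma 3.58.1, R 4.3.3, Biopython 1.88, matplotlib 3.10.9, pandas 2.3.3, scipy 1.17.1, numpy 2.4.6 and Python 3.11.15 were also used.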

Additional observations from a re-analysis of the deposited data

How the results depend on the processing

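The sign of the 6 members' values held under all 16 alternatives. Counts of calls moved more. Genes called were 13502, and 15441 with upper-quartile factors, 15416 with library size alone and 14041 with hepatocyte scaling, where most calls turned to rises, 7930 at a minimum count of 50, and 8472 to 19532 with 1 library left out, rises being the majority without control 1. Plasma cell genes called were 16, and 10 with library size alone and 7 with hepatocyte scaling, where most rose, 8 at a minimum count of 50, 9 with background subtracted, and 10 to 18 with 1 library left out. The 10 B cell calls became 7 with no filter and 7 with DESeq2, where falls were the majority, 6 at a minimum count of 50 (5 rose, 1 fell), and 4 to 12 with 1 library left out, with falls in the majority except without control 1. With upper-quartile factors and with library size alone 8 B cell genes rose and 2 fell, and with hepatocyte scaling 9 rose and 2 fell. The 6 calls of other constant segments became 3 with library size alone, 2 with hepatocyte scaling and 2 at a minimum count of 50. The 42 variable segment calls became 85 with no filter, 76 with DESeq2, 0 at a minimum count of 50 (1 tested), and, with rises in the majority, 42 with upper-quartile factors, 44 with library size alone, 42 with hepatocyte scaling, 38 without mitochondrial genes and 30 with background subtracted. With 1 library left out they were 30 to 63, with falls in the majority except without control 1, which gave the 63 (40 rose, 23 fell). The 8 Fc receptor calls became 4 with upper-quartile factors, 3 with library size alone, 1 with hepatocyte scaling, 4 at a minimum count of 50, 4 with background subtracted, and 4 to 10 with 1 library left out. The cause was not tested, other than that a higher minimum leaves fewer genes. The groups share replicate numbers that are not said to mark an animal, and deviations of same-numbered libraries correlated at 0.0136, 0.0257 and -0.00619, so no pairing was assumed. With the replicate block, 12059 genes were called, and no count moved by over 1.5 times. Depth limits what the miR-206 libraries can show of the members, which had 79 to 127 counts in all per library.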
